A study of Sus scrofa with 45 samples.

Results

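The genes described here are 7 inflammatory and regulatory cytokines of blood cells, IL1B, TNF, IL6, CXCL8 (also written IL8), IL10, IL18 and TGFB1. They were chosen by name, and each non-control probe whose gene name, RefSeq transcript or description named one of them was taken. The array has 43803 non-control spots and 2110 genes that could be named, and 11 of its probes belong to 6 of these 7 genes. No probe of IL1B was found by this rule, so IL1B was not analysed here.

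The study fed male, specific pathogen-free Clawn miniature pigs from 12 weeks of age, 5 per diet, and asked how blood gene expression differs under diets that raise blood lipids. The control diet was set against a high-fat, high-cholesterol diet (HFCD, with 15% lard and 2% cholesterol) and against HFCSD, which held 37% sucrose as well. Expression was measured in 1 colour on 45 Agilent porcine arrays, 33 of whole blood after 10, 19 and 27 weeks of feeding and 12 of white blood cells after 27 weeks. Most of the 12 groups hold 4 arrays, and 3 arrays each represent HFCSD whole blood at 19 weeks, HFCD whole blood at 27 weeks and HFCSD whole blood at 27 weeks. All groups are males of the same breed on their own diet since the start, so the feeding period is also a difference in age. Whole blood was drawn into PAXgene tubes and white blood cells were caught on LeukoLOCK filters, as the methods state, and the arrays of white blood cells were all scanned on a day of their own. Of the non-control spots, 35.4% to 53.3% passed as well above background on an array. With 3 or 4 arrays in a group, precision is limited by their number.

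A level below is the log2 of the processed spot intensity after quantile normalization over the 45 arrays, and a difference of 1 in it is a factor of 2. A probe was tested in a comparison if any group compared had it well above background on all usable arrays. It was called if its adjusted p from limma, taken over all probes tested, was below 0.05. The comparisons of HFCD and of HFCSD with control share their control arrays.

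Cytokines are small secreted proteins through which blood cells start, steer and end inflammation. TNF, IL6 and IL18 drive inflammation and CXCL8 draws neutrophils to its site, while IL10 and TGFB1 restrain it. Monocytes, neutrophils, lymphocytes and platelets each make some of them, and several are kept as a ready precursor or released only on stimulation, so a transcript level is not a level of active protein.

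The 6 measured cytokines fell into those seen on every array and those seen on few. TNF, IL18 and TGFB1 each had a probe well above background on 45 of 45 arrays, and the IL10 probe was well above background on 43. Both CXCL8 probes were well above background on 12 of 12 white blood cell arrays, but on only 9 and 3 of the 33 whole blood arrays. IL6 was at the limit of the arrays throughout, with 1 probe well above background on 2 arrays and the other on 1.

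IL18, which caspase-1 cuts to its active form and which raises interferon production by lymphocytes, showed the clearest relation to diet among these genes. At 27 weeks its level in whole blood was 9.88, 9.01, 10.16 and 9.72 on the control arrays, 8.62, 8.75 and 8.02 with HFCD, and 8.37, 8.81 and 7.43 with HFCSD. Every array of both diets was below every control array, and the 2 diets overlapped each other. IL18 was lower with HFCSD than in control by 1.49 on the log2 scale, in 3 of 3 arrays. This difference had SE 0.37, a 95% confidence interval of −2.31 to −0.67 and an adjusted p = 0.0345 by limma. With HFCD the difference was −1.23 (SE 0.37, adjusted p = 0.895), also lower in 3 of 3 arrays but not called, and HFCSD set against HFCD differed by −0.26 (SE 0.40, adjusted p = 0.759).

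The IL18 call with HFCSD was the only cytokine probe called among the 8 comparisons of a diet with control, 1 of 5 cytokine probes tested at 27 weeks beside 10.6% of all 17135 probes tested there. It was lost without control replicate 1, 2 or 3 and without HFCSD replicate 1, 2 or 3, with changes from −1.79 to −1.10 over all arrays left out and adjusted p from 0.0338 to 0.0948. The share of spots well above background moved with the groups, at 50.2%, 49.4%, 46.5% and 38.9% on the control arrays and 39.6%, 38.8% and 39.7% with HFCSD, and with this share as a covariate the change was −1.66 (adjusted p = 0.198, within 0.0305 to 0.198 over 12 alternatives). These arrays lay on 3 slides of 1 scan day. The slide with 1 control and 1 HFCSD array held IL18 levels of 9.01 and 8.81, the slide with 1 control and 2 HFCSD arrays held 10.16 against 8.37 and 7.43, and with slide as a fixed block the change was −1.34 (adjusted p = 0.0846).

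At 19 weeks the IL18 level in whole blood was 10.26, 9.27, 10.32 and 8.73 in control, 6.81, 8.03, 8.22 and 5.96 with HFCD, and 8.74, 6.99 and 7.73 with HFCSD. All 4 HFCD arrays were below all control arrays, while HFCSD replicate 1 lay just above the lowest control array. The difference from control was −2.39 with HFCD (SE 0.57, adjusted p = 0.168) and −1.82 with HFCSD (SE 0.62, adjusted p = 0.315), and neither was called. Platelet markers were at −2.72 and −2.83 and monocyte markers at −0.90 and −1.13 on HFCD replicates 1 and 4, the lowest in IL18, beside 0.02 to 0.40 and −0.35 to 0.17 in control. On HFCSD replicate 2, the lowest of its group in IL18, platelet markers were at −1.25 but monocyte markers at 0.20, and the low monocyte value, −1.11, was that of replicate 3. T cell markers were at −0.86 to −0.47 in control. On replicates 1 to 4 of HFCD they were at 0.40, −0.44, −0.16 and 0.11, and with HFCSD at −0.20, 0.20 and −0.73. All 5 T cell markers tested had a positive difference from control with each diet. None of these was called, beside 0.0181% and 0.0175% of all probes. The part of these cells in the IL18 levels was not tested. The study listed IL18 among the genes most lowered with HFCD at this period from these same arrays, so the HFCD values are not independent evidence of that direction. Control replicates 2, 3 and 4 were scanned on another day than the rest. On the day that held all 3 diets the 1 control array stood at 10.26, and the differences were −3 with HFCD and −2.43 with HFCSD, for which 1 control array gives no spread.

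At 10 weeks the diets were hardly apart in IL18. The whole blood levels were 9.07, 7.01, 7.26 and 6.90 in control, 5.49, 7.96, 6.55 and 7.18 with HFCD, and 7.12, 5.96, 7.03 and 7.46 with HFCSD. Control replicate 1 stood above all other arrays of this period, and the groups overlapped. The differences from control were −0.77 with HFCD (SE 0.57, adjusted p = 0.630) and −0.67 with HFCSD (SE 0.57, adjusted p = 1.00), and without control replicate 1 they were −0.26 and −0.16. The change in IL18 at 27 weeks minus that at 10 weeks was −0.46 for HFCD (SE 0.82, adjusted p = 0.960) and −0.82 for HFCSD (SE 0.82, adjusted p = 0.589), or −0.97 and −1.32 without that array and still not called, so a growing difference with feeding period was not shown.

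White blood cells at 27 weeks held IL18 at 11.75, 10.44, 10.99 and 9.68 in control, 9.69, 8.82, 10.16 and 8.89 with HFCD, and 9.13, 8.33, 10.43 and 9.5 with HFCSD. All 4 arrays of each diet were below the control mean, but the ranges overlapped. The differences were −1.32 with HFCD (SE 0.51, adjusted p = 0.989) and −1.37 with HFCSD (SE 0.51, adjusted p = 0.365). Set against the changes in whole blood, those in white blood cells differed by −0.10 for HFCD (SE 0.68, adjusted p = 1.00) and 0.12 for HFCSD (SE 0.68, adjusted p = 0.938). IL18 was not called between the sample types, white blood cells minus whole blood being 1.02 in control (SE 0.46, adjusted p = 0.0779), 0.93 with HFCD (SE 0.50, adjusted p = 0.132) and 1.15 with HFCSD (SE 0.50, adjusted p = 0.0559), and only the HFCD groups did not overlap. It was called in 1, 1 and 2 of 11 alternatives and with 1, 0 and 4 of 22 single arrays left out. In bulk samples such as these, fewer cells that make IL18 and less IL18 RNA per cell cannot be told apart.

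Control pigs also differed in IL18 between feeding periods. Their whole blood level rose from 10 weeks by 2.08 at 19 weeks (SE 0.56, adjusted p = 0.0123) and by 2.13 at 27 weeks (SE 0.56, adjusted p = 0.00796), above the 10 week mean in 4 of 4 arrays each time. The ranges overlapped only through control replicate 1 at 10 weeks. The 19 week call was lost without control replicate 4 at 10 weeks or replicate 3 at 19 weeks (adjusted p up to 0.0575). With HFCD the level differed from 10 weeks by 0.46 at 19 weeks (SE 0.56, adjusted p = 0.604) and 1.67 at 27 weeks (SE 0.60, adjusted p = 0.101), and with HFCSD by 0.93 (SE 0.60, adjusted p = 0.348) and 1.31 (SE 0.60, adjusted p = 0.158). Each feeding period was scanned on days of its own, so period, age and scan day cannot be told apart.

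Over all 12 groups the mean IL18 level ran from 10.72 (SD 0.87) in control white blood cells down to 6.79 (SD 1.04) in HFCD whole blood at 10 weeks. Below the first came control whole blood at 27 weeks with 9.69 (0.49) and at 19 weeks with 9.65 (0.78), and then white blood cells with HFCD, 9.39 (0.65), and with HFCSD, 9.35 (0.87). The lower part of the order was whole blood with HFCD at 27 weeks, 8.46 (0.39), HFCSD at 27 weeks, 8.20 (0.70), HFCSD at 19 weeks, 7.82 (0.88), control at 10 weeks, 7.56 (1.02), HFCD at 19 weeks, 7.26 (1.07), HFCSD at 10 weeks, 6.89 (0.65), and HFCD at 10 weeks. Neighbours in this order differed by more than the larger of their SDs only at the top, by 1.02, and between white blood cells with HFCSD and whole blood with HFCD at 27 weeks, by 0.88.

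A further IL18 probe gave another picture. It was well above background on 13 of 33 whole blood arrays and on none of the 12 of white blood cells, its level correlated with that of the main probe at r = −0.371 over the 45 arrays (a description), and it was not tested in any comparison of whole blood at 27 weeks. There its level was 3.21, 3.07, 2.69 and 4.48 in control, with replicate 4 alone well above background, and 5.66, 4.59 and 4.42 with HFCSD, with replicates 1 and 3 well above background. The groups overlapped, with the HFCSD arrays mostly the higher ones. With HFCD its level there was 2.13, 4.59 and 4.26, with replicates 2 and 3 well above background. At 19 weeks it was 4.80, 2.67, 3.65 and 1.68 in control, and 1.60, 5.06, 5.03 and 5.65 with HFCD. Well above background then were control replicate 1 and HFCD replicates 2, 3 and 4. With HFCSD at 19 weeks it was 4.03, 1.75 and 2.63, with no array well above background. The target of neither probe could be checked against a pig sequence, so the cause of the disagreement was not tested. All IL18 results above rest on the main probe, whose sequence from the array file is given because the diet result turns on it alone. It starts at base 426 of the transcript.
A_72_P232887 (IL18): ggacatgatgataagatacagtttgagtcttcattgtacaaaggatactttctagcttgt

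**Figure D1:**
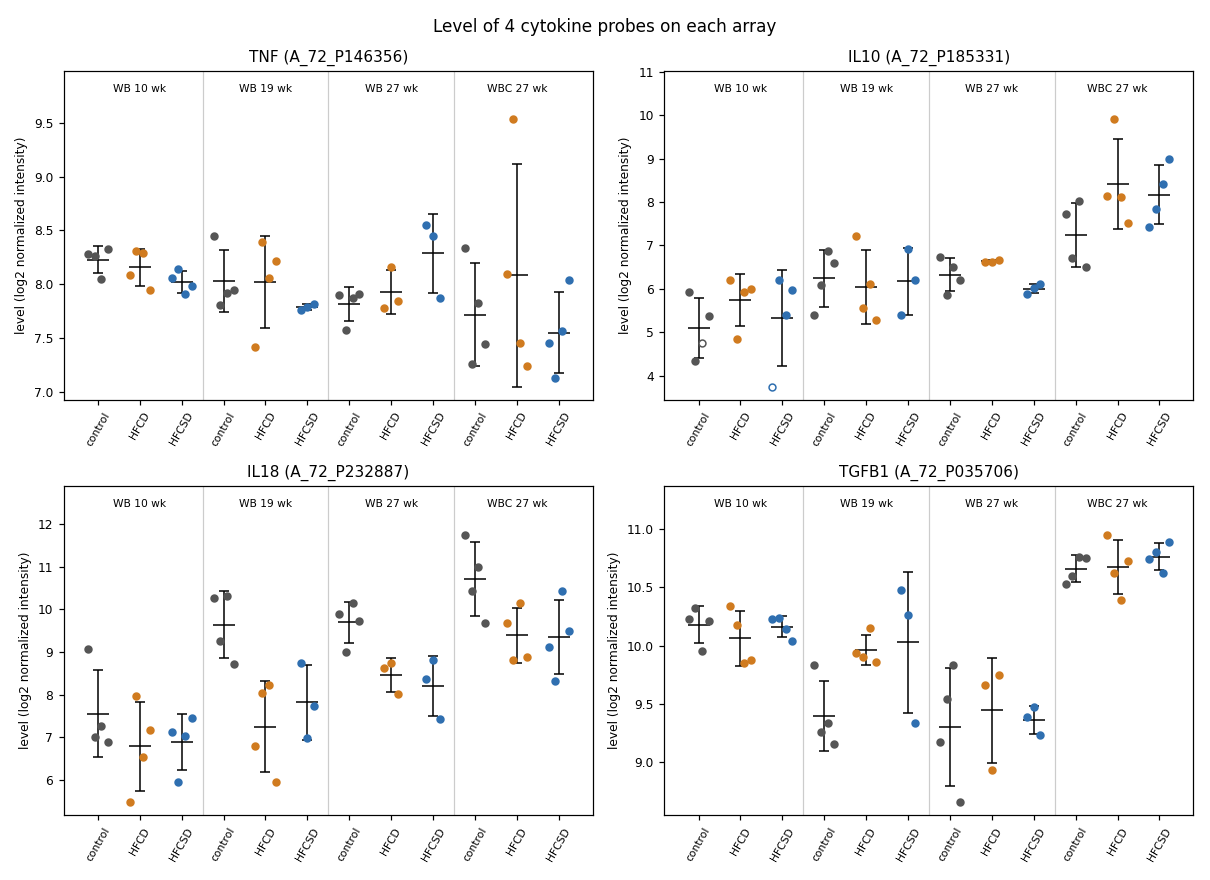
Level (log2 normalized intensity) of TNF, IL10, IL18 and TGFB1 on each of the 45 arrays, in whole blood (WB) and white blood cells (WBC), by diet and weeks (wk) of feeding; open symbols are arrays not well above background, and the bars are the mean and SD. The IL18 arrays of both diets lie below all control arrays in whole blood at 27 weeks, and TGFB1 is highest in white blood cells.

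CXCL8, the chemokine that attracts and activates neutrophils, set the sample types apart most. In white blood cells the level of its main probe was 11.85, 8.80, 8.31 and 6.01 in control, 7.73, 10.30, 7.95 and 5.93 with HFCD, and 7.23, 7.31, 9.15 and 9.82 with HFCSD. In whole blood at 27 weeks it was 5.06, 3.98, 4.60 and 3.41 in control, 3.28, 3.90 and 3.77 with HFCD, and 3.35, 3.31 and 3.53 with HFCSD. Only control replicates 1, 2 and 3 and HFCD replicate 1 among these 10 arrays were well above background, and each white blood cell array was above each whole blood array of its diet.

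CXCL8 was at least 18.9-fold higher in white blood cells than in whole blood in control (adjusted p = 0.000738), at least 20.2-fold with HFCD (adjusted p = 0.0019) and at least 17-fold with HFCSD (adjusted p = 0.000419), higher in 4 of 4 arrays each time. Single arrays carry part of this: without control replicate 1 in white blood cells the fitted log2 difference of CXCL8 went from 4.48 to 3.45, and without HFCD replicate 2 from 4.33 to 3.56, both still called. The "at least" bound sets the mean of the bright group against the dim group's mean of, per array, the higher of the probe's own level and the lowest level well above background. Over 10 alternatives the main probe stayed called. Its fitted log2 difference ran from 2.77 to 4.74 in control, 2.24 to 4.68 with HFCD and 2.54 to 5.33 with HFCSD. The bounds are thus those of the main processing and did not hold in all alternatives. The other CXCL8 probe gave at least 38.8-fold in control (adjusted p = 0.000118), 45.2-fold with HFCD (adjusted p = 0.000107) and 42.7-fold with HFCSD (adjusted p = 7.56e-06), again in the main processing. Its fitted log2 difference ran from 3.57 to 6.13, 3.19 to 7.10 and 3.96 to 8.78 over 10 alternatives. With 1 array left out it ran from 5.02 to 6.95, 5.77 to 7.37 and 7.83 to 8.74. All of these were called. In whole blood at 27 weeks this probe was well above background on 2 of 4 control arrays, at 4.81 and 4.22, and on no array of either diet.

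CXCL8 was tested between diets in white blood cells alone, and was not called there. Among the white blood cell arrays the main probe differed from control by −0.77 with HFCD (SE 1.16, adjusted p = 0.997) and −0.37 with HFCSD (SE 1.16, adjusted p = 0.933), and the other probe by −0.53 and 0.21. The arrays within a group spread widely, with an SD of 2.40 in control, 1.79 with HFCD and 1.31 with HFCSD, and the 2 probes moved together over the 45 arrays at r = 0.954. The platelet marker list was lowest on control replicate 1 (−3.19), HFCD replicate 2 (−4.17) and HFCSD replicate 4 (−1.23), the arrays with the highest CXCL8 of their groups, and its part in the CXCL8 spread was not tested. No comparison within whole blood was tested for CXCL8, since no group there had it well above background on all arrays.

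Before 27 weeks CXCL8 was rarely above background in whole blood. At 19 weeks its main probe was at 4.23, 3.57, 3.76 and 3.79 in control, 2.58, 4.68, 1.5 and 2.82 with HFCD and 3.37, 2.92 and 3.70 with HFCSD, well above background in control replicates 1, 3 and 4 and HFCD replicate 2. At 10 weeks it was at 2.68, 3.17, 4.09 and 3.23 in control, 2.10, 1.91, 1.52 and 3.26 with HFCD and 3.06, 3.08, 3.37 and 3.08 with HFCSD, well above background only in HFCD replicate 4. The groups overlapped at both periods.

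In the order of the 12 group means CXCL8 had 1 step beyond the larger SD. The white blood cell groups held 8.75 (SD 2.40) in control, 8.38 (1.31) with HFCSD and 7.98 (1.79) with HFCD, and 3.72 below them came whole blood of control at 27 weeks, 4.26 (0.72). The rest of the order was control at 19 weeks, 3.84 (0.28), HFCD at 27 weeks, 3.65 (0.33), HFCSD at 27 weeks, 3.40 (0.12), HFCSD at 19 weeks, 3.33 (0.39), control at 10 weeks, 3.29 (0.59), HFCSD at 10 weeks, 3.15 (0.15), HFCD at 19 weeks, 2.90 (1.32), and HFCD at 10 weeks, 2.20 (0.75). These neighbours in whole blood did not differ beyond their spread, and most of these arrays were at the background.

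**Figure D2:**
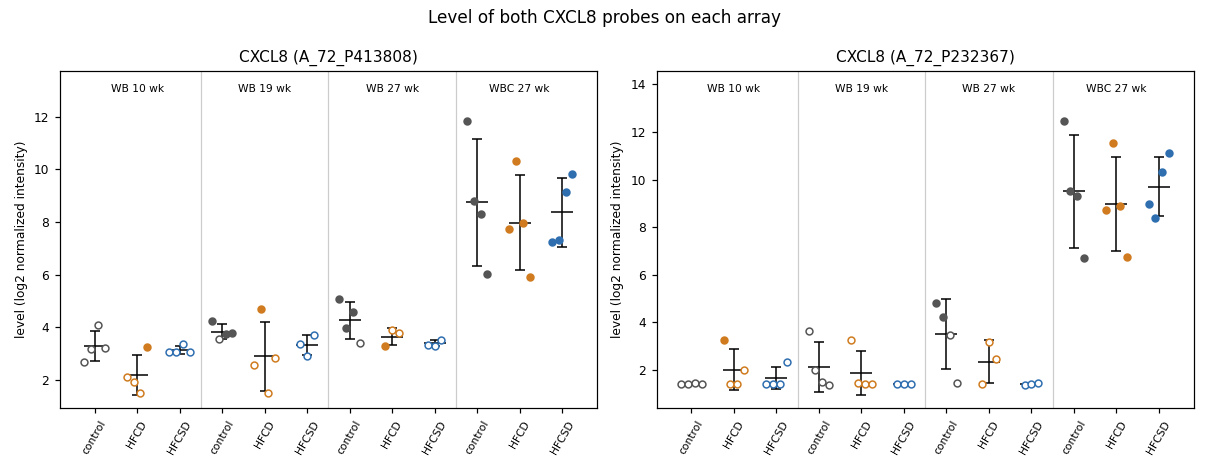
Level (log2 normalized intensity) of the 2 CXCL8 probes on each of the 45 arrays, in whole blood (WB) and white blood cells (WBC), by diet and weeks (wk) of feeding; open symbols are arrays not well above background, and the bars are the mean and SD. All 12 white blood cell arrays are well above background and lie above the whole blood arrays.

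TNF, an early signal that activates endothelium and white blood cells, was called in no comparison. Its main probe ran from 7.13 to 9.53 over the 45 arrays. At 27 weeks in whole blood the level was 7.90, 7.58, 7.87 and 7.91 in control, 7.78, 8.16 and 7.85 with HFCD, and 8.55, 8.45 and 7.87 with HFCSD. HFCSD replicates 1 and 2 were above all control arrays and replicate 3 was among them. The difference with HFCSD was 0.47 (SE 0.23, adjusted p = 0.177), and a probe that shares 54 of its 60 bases with the main one gave 0.58 (SE 0.23, adjusted p = 0.116), with all 3 HFCSD arrays, at 8.58, 8.42 and 8.09, above the control arrays at 7.79, 7.49, 7.82 and 8.02. These 2 probes read nearly the same stretch (r = 0.949) and are not separate evidence.

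White blood cells held TNF at 8.34, 7.26, 7.83 and 7.45 in control, 8.10, 9.53, 7.46 and 7.24 with HFCD, and 7.46, 7.13, 7.57 and 8.04 with HFCSD. HFCD replicate 2 was the highest of the 45 arrays, and the groups overlapped. TNF differed between white blood cells and whole blood by −0.10 in control (SE 0.37, adjusted p = 0.849), 0.15 with HFCD (SE 0.40, adjusted p = 0.770) and −0.74 with HFCSD (SE 0.40, adjusted p = 0.116). The overlapping probe gave −0.88 with HFCSD (SE 0.42, adjusted p = 0.075), with all 4 white blood cell arrays below all 3 of whole blood, and was not called. Under the alternatives this difference was called in 1 of 11 for the main probe and 2 of 11 for the overlapping one.

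At 19 weeks the TNF level in whole blood was 8.45, 7.81, 7.92 and 7.95 in control, 7.42, 8.39, 8.06 and 8.22 with HFCD, and 7.76, 7.79 and 7.82 with HFCSD. At 10 weeks it was 8.28, 8.26, 8.05 and 8.33 in control, 8.09, 8.31, 8.29 and 7.95 with HFCD, and 8.06, 8.14, 7.91 and 7.98 with HFCSD. The diets overlapped at both periods, while all 4 control arrays at 27 weeks were below all 4 at 10 weeks, by 0.41 in the mean (SE 0.18, adjusted p = 0.110), which was not called. The change with HFCSD at 27 weeks minus that at 10 weeks was 0.68 (SE 0.27, adjusted p = 0.295).

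Mean TNF levels ran over the 12 groups from 8.29 (SD 0.37) in HFCSD whole blood at 27 weeks and 8.23 (0.13) in control whole blood at 10 weeks to 7.72 (0.48) in control and 7.55 (0.38) in HFCSD white blood cells. Between them, from high to low, were HFCD at 10 weeks, 8.16 (0.17), HFCD white blood cells, 8.08 (1.03), control at 19 weeks, 8.03 (0.28), HFCSD at 10 weeks, 8.02 (0.10), HFCD at 19 weeks, 8.02 (0.42), HFCD at 27 weeks, 7.93 (0.20), control at 27 weeks, 7.82 (0.16), and HFCSD at 19 weeks, 7.79 (0.03). No neighbours in this order of the main probe differed beyond the larger of their SDs. For the overlapping probe HFCSD whole blood at 27 weeks, 8.36 (0.25), stood 0.38 above the next group, control whole blood at 10 weeks, and this step alone was beyond the larger SD.

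The remaining TNF probe was well above background on 3 of 33 whole blood and 5 of 12 white blood cell arrays, at 3.33 to 4.74 in the latter. It starts at base 531 of the transcript, far from the pair at bases 1501 and 1507, and correlated with the main probe at r = 0.217 over the 45 arrays and 0.777 over the 12 of white blood cells. Its sequence is given because it reads another stretch of TNF and was seen on far fewer arrays than the pair.
A_72_P175851 (TNF): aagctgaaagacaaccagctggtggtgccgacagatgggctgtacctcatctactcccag

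IL6, which drives fever and the acute phase response, was close to silent on these arrays. Of 33 whole blood arrays its first probe was well above background at 19 weeks in control replicate 3, at 3.98, and in HFCSD replicate 3, at 6.21. The second IL6 probe was well above background only in white blood cells of HFCD replicate 1, at 5.10. The 2 probes never marked the same array, their medians over the 45 arrays were 1.59 and 1.45, and IL6 was not tested in any comparison.

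IL10, which shuts down cytokine release by monocytes and other cells, was higher in white blood cells than in whole blood on both diets. In white blood cells its level was 7.73, 6.71, 8.02 and 6.51 in control, 8.13, 9.90, 8.12 and 7.52 with HFCD, and 7.43, 7.84, 8.41 and 8.99 with HFCSD. In whole blood at 27 weeks it was 6.74, 5.85, 6.50 and 6.21 in control, 6.63, 6.63 and 6.66 with HFCD, and 5.89, 6.02 and 6.11 with HFCSD. The sample types did not overlap within HFCD or within HFCSD, and in control the white blood cell replicates 2 and 4 lay among the whole blood arrays. IL10 was higher in white blood cells by 1.78 with HFCD (SE 0.46, adjusted p = 0.00419) and 2.16 with HFCSD (SE 0.46, adjusted p = 0.000657), in 4 of 4 arrays each, and the difference in control was 0.92 (SE 0.43, adjusted p = 0.0891).

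The diets were not shown to differ from control in this. The change with diet in white blood cells minus that in whole blood was 0.86 for HFCD (SE 0.63, adjusted p = 1.00) and 1.24 for HFCSD (SE 0.63, adjusted p = 0.288) in IL10. Within white blood cells IL10 differed from control by 1.17 with HFCD (SE 0.52, adjusted p = 0.997) and 0.92 with HFCSD (SE 0.52, adjusted p = 0.543). In whole blood at 27 weeks the differences were 0.31 with HFCD (SE 0.23, adjusted p = 0.981) and −0.32 with HFCSD (SE 0.23, adjusted p = 0.341). All 3 HFCSD arrays there were below all 3 HFCD arrays, by 0.64 in the mean (SE 0.25, adjusted p = 0.393).

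IL10 levels in whole blood at 10 weeks were 5.93, 4.35, 4.76 and 5.38 in control, 6.20, 4.85, 5.93 and 5.99 with HFCD, and 3.75, 6.20, 5.39 and 5.98 with HFCSD, with control replicate 3 and HFCSD replicate 1 not well above background. At 19 weeks the levels were 5.40, 6.09, 6.87 and 6.60 in control, 7.21, 5.57, 6.12 and 5.28 with HFCD, and 5.39, 6.92 and 6.21 with HFCSD. The diets overlapped at both periods. IL10 in control differed from 10 weeks by 1.14 at 19 weeks (SE 0.46, adjusted p = 0.113) and 1.22 at 27 weeks (SE 0.46, adjusted p = 0.0595), and neither was called.

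The order of mean IL10 levels began with white blood cells, 8.42 (SD 1.03) with HFCD, 8.17 (0.68) with HFCSD and 7.24 (0.74) in control. Whole blood followed with HFCD at 27 weeks, 6.64 (0.02), control at 27 weeks, 6.33 (0.38), control at 19 weeks, 6.24 (0.65), HFCSD at 19 weeks, 6.17 (0.76), HFCD at 19 weeks, 6.05 (0.85), HFCSD at 27 weeks, 6 (0.11), HFCD at 10 weeks, 5.74 (0.61), HFCSD at 10 weeks, 5.33 (1.11), and control at 10 weeks, 5.10 (0.69). Only HFCSD and control white blood cells, 0.92 apart, were neighbours that differed beyond the larger SD.

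TGFB1, which limits the growth and activation of lymphocytes and is stored in platelets, separated the sample types with the least spread. Its level in white blood cells was 10.53, 10.60, 10.76 and 10.75 in control, 10.95, 10.62, 10.39 and 10.72 with HFCD, and 10.74, 10.80, 10.62 and 10.89 with HFCSD. In whole blood at 27 weeks it was 9.17, 9.54, 9.83 and 8.66 in control, 9.66, 8.93 and 9.75 with HFCD, and 9.39, 9.47 and 9.23 with HFCSD. The lowest white blood cell array was above the highest of whole blood at this period. TGFB1 was higher in white blood cells by 1.36 in control (SE 0.23, adjusted p = 8.19e-05), 1.22 with HFCD (SE 0.24, adjusted p = 0.00051) and 1.40 with HFCSD (SE 0.24, adjusted p = 9.59e-05), in 4 of 4 arrays each.

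In control whole blood TGFB1 fell over the feeding periods. Its level was 10.23, 10.32, 9.95 and 10.21 at 10 weeks and 9.83, 9.26, 9.34 and 9.16 at 19 weeks. All 4 control arrays at 19 weeks and all 4 at 27 weeks were below all 4 at 10 weeks. TGFB1 fell by 0.78 at 19 weeks (SE 0.24, adjusted p = 0.0275) and by 0.87 at 27 weeks (SE 0.24, adjusted p = 0.00981). Control replicate 1 at 19 weeks, at 9.83, was scanned with the diet groups of that period, and replicates 2, 3 and 4 on another day. Period, age and scan day cannot be told apart for TGFB1 either. The 19 week call was lost without control replicate 1, 2 or 4 at 10 weeks or 2, 3 or 4 at 19 weeks (adjusted p up to 0.0881), and the 27 week call without control replicate 4 at 27 weeks (adjusted p = 0.0554).

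With the diets the TGFB1 level at 10 weeks was 10.34, 10.18, 9.85 and 9.88 for HFCD and 10.23, 10.24, 10.14 and 10.04 for HFCSD, and at 19 weeks it was 9.94, 9.90, 10.15 and 9.86 for HFCD and 10.48, 10.26 and 9.34 for HFCSD. The 27 week arrays of HFCSD lay below all its arrays at 10 weeks, and so did those of HFCD. TGFB1 fell with HFCSD by 0.80 at 27 weeks (SE 0.25, adjusted p = 0.0424), lower in 3 of 3 arrays, a call that was lost without any single one of the HFCSD arrays of the 2 periods (adjusted p up to 0.121) and with the percentile scaling, the weaker presence mark, no filter or the share of spots as a covariate. The HFCD arrays differed by −0.62 (SE 0.26, adjusted p = 0.161) at 27 weeks. At 19 weeks the differences from 10 weeks were −0.10 with HFCD (SE 0.24, adjusted p = 0.801) and −0.14 with HFCSD (SE 0.25, adjusted p = 0.771).

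Diet set against control showed no called change of TGFB1. At 19 weeks all 4 HFCD arrays were above all 4 control arrays, by 0.57 in the mean (SE 0.27, adjusted p = 0.422), and HFCSD differed by 0.63 (SE 0.30, adjusted p = 0.431). On the scan day that held all 3 diets the 1 control array stood at 9.83, and the TGFB1 differences were 0.13 with HFCD and 0.20 with HFCSD. At 27 weeks in whole blood the differences were 0.15 and 0.06, and in white blood cells 0.01 and 0.10, for HFCD and HFCSD. The change at 27 weeks minus that at 10 weeks was 0.26 for HFCD (SE 0.35, adjusted p = 0.955) and 0.07 for HFCSD (SE 0.35, adjusted p = 0.921).

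Over the 12 groups the order of mean TGFB1 levels had 2 steps beyond the larger SD of the neighbours. White blood cells held 10.76 (SD 0.11) with HFCSD, 10.67 (0.23) with HFCD and 10.66 (0.11) in control. After a step of 0.49 came whole blood of control, HFCSD and HFCD at 10 weeks, 10.18 (0.16), 10.16 (0.09) and 10.06 (0.24), with HFCSD and HFCD at 19 weeks, 10.03 (0.61) and 9.96 (0.13). After a step of 0.51 came HFCD at 27 weeks, 9.45 (0.45), control at 19 weeks, 9.40 (0.30), HFCSD at 27 weeks, 9.36 (0.12), and control at 27 weeks, 9.30 (0.51). No other neighbours differed beyond the larger SD. The arrays themselves were not parted at these steps. Those of HFCSD at 19 weeks ran from 9.34, among the lowest groups, to 10.48, above a white blood cell array at 10.39.

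The number of cytokine probes called can be read against all probes tested. Among diets against control, limma called 0 of 5 cytokine probes with HFCD at 10 weeks beside 0.0281% of all probes (0 at an unadjusted p under 0.05, beside 10% of all probes), and 0 of 4 with HFCSD beside 0.0123% (0 unadjusted, beside 1.73%). At 19 weeks limma called 0 of 5 with HFCD beside 0.0181% (1 unadjusted, IL18, beside 12.5%) and 0 of 5 with HFCSD beside 0.0175% (1 unadjusted, IL18, beside 11.9%). At 27 weeks it called 0 of 5 with HFCD beside 0.0165% (1 unadjusted, IL18, beside 5.54%), against the 1 of 5 with HFCSD beside 10.6% (2 unadjusted, IL18 and the overlapping TNF probe, beside 32.3%). In white blood cells limma called 0 of 7 with HFCD beside 0.0276% (2 unadjusted, IL18 and IL10, beside 4.72%) and 0 of 7 with HFCSD beside 0.0366% (1 unadjusted, IL18, beside 11.4%).

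HFCSD set directly against HFCD gave 0 calls by limma among the cytokine probes at 10 weeks (0 of 5, beside 0% of all probes, and 0 unadjusted beside 4.95%) and at 19 weeks (0 of 5, beside 0%, and 0 unadjusted beside 1.56%). At 27 weeks the count by limma was 0 of 5 in whole blood beside 0.0111% (1 unadjusted, IL10, beside 12.6%) and 0 of 7 in white blood cells beside 0% (0 unadjusted, beside 2.17%). Between white blood cells and whole blood limma called 3 of 7 cytokine probes in control beside 45.3% of all probes, 4 of 7 with HFCD beside 47.5% and 4 of 7 with HFCSD beside 58.9%, all of them higher in white blood cells. In each diet 2 of these are the CXCL8 pair, which is 1 gene and met the filter through the white blood cell arrays alone, a filter that favours a higher level there. With no filter the CXCL8 pair was called as well. The median cytokine difference there was 1.02, 1.22 and 1.40, and that of all probes tested was 0.17, 0.19 and 0.42. The share of cytokine probes called was thus near that of all probes. Sample type goes with extraction method and with scan day, and these cannot be told apart.

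Over the feeding periods limma called 2 of 5 cytokine probes in control at 19 weeks beside 12% of all probes and 2 of 5 at 27 weeks beside 20.7%, IL18 upward and TGFB1 downward each time. With HFCD it called 0 of 5 at 19 weeks beside 6.98% (0 unadjusted, beside 27.4%) and 0 of 5 at 27 weeks beside 5.59% (2 unadjusted, IL18 and TGFB1, beside 20.5%). With HFCSD it called 0 of 5 at 19 weeks beside 7.16% (0 unadjusted, beside 24.7%) and 1 of 5 at 27 weeks, TGFB1, beside 10.4%. No difference between changes was called by limma for a cytokine probe. For white blood cells minus whole blood the count was 0 of 7 for HFCD beside 0% of all probes and 0 of 7 for HFCSD beside 1.38% (0 unadjusted both times, beside 1.34% and 19.3%), and for 27 minus 10 weeks it was 0 of 5 for HFCD beside 0% (0 unadjusted, beside 2.72%) and 0 of 5 for HFCSD beside 0% (2 unadjusted, both of the TNF pair, beside 14.9%).

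The measured cytokines were also set against each other over the 33 whole blood arrays, in 6 pairs with permutation p adjusted over them. Each diet had 5 pigs and up to 12 such arrays, so some arrays must share a pig and the pooled values are a description of the arrays. IL18 ran against TGFB1, with r = −0.540 (permutation p = 0.00114, adjusted 0.00684) and rho = −0.577 (permutation p = 0.00056, adjusted 0.00336), and r = −0.484 without the 2 farthest arrays. Within the feeding periods r was −0.122 at 10 weeks, −0.348 at 19 weeks and −0.117 at 27 weeks, and with group means taken out it was 0.106, so no inverse relation of IL18 and TGFB1 was seen within groups.

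IL10 ran against TGFB1 with r = −0.445 (permutation p = 0.00924, adjusted 0.0185) and rho = −0.448 (permutation p = 0.0105, adjusted 0.021), with −0.369 without the 2 farthest arrays and −0.207, −0.254 and 0.0573 within the periods. With group means taken out r of IL10 and TGFB1 was −0.137. TNF ran against IL10 with r = −0.448 (permutation p = 0.00873, adjusted 0.0185) and rho = −0.499 (permutation p = 0.00353, adjusted 0.0106), −0.400 without the 2 farthest, and −0.0971, −0.694 and −0.291 within the periods. With group means taken out r of TNF and IL10 was −0.363. The TNF and IL10 relation was negative within each period, and close to 0 at 10 weeks. In the 12 white blood cell arrays none of 10 pairs had an adjusted p under 0.05. The lowest by r was TNF with IL10, at r = 0.752 (permutation p = 0.00635, adjusted 0.0635) and rho = 0.657 (permutation p = 0.0238, adjusted 0.119), with r = 0.604 without the 2 farthest arrays. The lowest by rho was TNF with CXCL8, at r = 0.659 (permutation p = 0.0192, adjusted 0.0960) and rho = 0.734 (permutation p = 0.0088, adjusted 0.0880). Without the 2 farthest arrays r of TNF and CXCL8 was 0.483. With group means taken out r was 0.876 for TNF with IL10 and 0.765 for TNF with CXCL8. For CXCL8 with IL10 it was 0.784, beside r = 0.528 before (adjusted permutation p = 0.197). The other pairs then ran from −0.398 to 0.578, and none of these values was tested.

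Other named genes followed some cytokines closely over the 33 whole blood arrays, taken from 988 genes with a probe well above background on all of them, as a description with no test. Nearest to IL18 were ABHD5 (r = 0.910), a cofactor of fat breakdown, SOD2 (r = 0.902), the mitochondrial superoxide dismutase, and ACSL4 (r = 0.899), which activates long fatty acids. With group means taken out these were 0.844, 0.834 and 0.815. Nearest to TGFB1 were the T cell surface gene CD2 (r = 0.870), SUCLG1 (r = 0.851) and TPM3 (r = 0.847), or 0.760, 0.662 and 0.778 with group means taken out. IL10 was near to CASP1 (r = 0.795) and SLPI (r = 0.785), and TNF to TBRG4 (r = 0.846), PPP2R1A (r = 0.839) and MAVS (r = 0.824).

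Of 81 other genes of these cytokine pathways, 50 had a probe, 24 of 32 ligands and antagonists, 10 of 18 receptors and 16 of 31 processing and signalling genes. Well above background on all 33 whole blood arrays were 4, 4 and 12 of them, and 7 were so on no array at all, namely IL12A, IL12B, IL5, IL13, IL2, CSF2 and TGFBI. In the comparisons of diets with control 1 of these genes was called, THBS1, whose product frees TGFB1 from its latent form. It was 1 of 31 tested with HFCSD in whole blood at 27 weeks, beside 10.6% of all probes called. THBS1 was higher there than in control by 2.37 (SE 0.67, adjusted p = 0.0492). That call was lost with the share of spots as a covariate, where 0 probes of any gene were called. MYD88, the adaptor through which IL18 and toll-like receptors signal, differed there by 1.29 (adjusted p = 0.0661). With HFCD in whole blood at 27 weeks the largest difference was also that of THBS1, 1.27 (SE 0.68, adjusted p = 0.928). With HFCD at 10 weeks THBS1 differed by −1.16 (SE 0.72, adjusted p = 0.582).

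The largest differences of pathway genes at 19 weeks belonged to CCL3L1, a chemokine for monocytes, with −2.13 for HFCD (adjusted p = 0.121, 3 of 4 HFCD arrays well above background) and −2.10 for HFCSD (adjusted p = 0.220), and to TNFSF10, a death ligand of the TNF family, with 1.39 (adjusted p = 0.320) and 1.42 (adjusted p = 0.369). At 10 weeks TRAF6 differed most with HFCD, by 1.61 (adjusted p = 0.420, 3 of 4 control arrays well above background), and CCL3L1 with HFCSD, by −0.84 (adjusted p = 1.00). The largest in white blood cells were TNFSF10 with HFCD, 1.00 (adjusted p = 0.997), and IL1A with HFCSD, −1.17 (adjusted p = 0.436, 3 of 4 HFCSD arrays well above background).

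Between sample types 13 pathway genes were called higher in white blood cells and 3 lower of 36 tested in control, 10 and 3 of 36 with HFCD, and 13 and 4 of 34 with HFCSD, beside 45.3%, 47.5% and 58.9% of all probes called. The share called in the list was thus not above that of all probes. Beside TGFB1 its signal carriers were higher, SMAD3 by 1.11, 1.53 and 1.60 and SMAD4 by 1.13, 1.44 and 1.65, in control, HFCD and HFCSD. Its receptor TGFBR1 was called higher too, with 3 of 4 whole blood arrays well above background in control, and 2 of 3 and 0 of 3 so in HFCD and HFCSD. STAT3, which carries the IL6 and IL10 signals, was higher by 0.98 in control and 1.11 with HFCD. It was called higher with HFCSD too, where 2 of 3 whole blood arrays were well above background. CXCL2, another chemokine for neutrophils, was called higher, and was well above background on all 12 white blood cell arrays and on 2 of 4, 0 of 3 and 0 of 3 in whole blood. CXCL2, TGFBR1 and, with HFCSD, STAT3 met the filter through the white blood cell arrays alone. Such a filter favours a higher level there, so these calls add little on their own. THBS1 was lower by 4.29, 6.11 and 6.20.

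Over the feeding periods 2 pathway genes were called higher and 1 lower of 29 in control at 19 weeks beside 12% of all probes, and 6 and 2 of 30 at 27 weeks beside 20.7%. With HFCD they were 2 and 1 of 33 beside 6.98% and 1 and 0 of 34 beside 5.59%, and with HFCSD 3 and 1 of 30 beside 7.16% and 4 and 0 of 30 beside 10.4%. TNFRSF1B, a receptor of TNF, rose in control by 2.13 and 1.93 and with HFCSD by 1.99 and 1.55. IL1RN, the natural antagonist of the IL1 receptor, rose in control by 0.94 (adjusted p = 0.0457) and 0.91 (adjusted p = 0.036). TNFSF10 rose at 27 weeks by 2.27 with HFCD and 2.19 with HFCSD, and was called higher in control too, where 2 of 4 arrays at 10 weeks were well above background. NFKB1 fell at 19 weeks by 1.41 in control, 1.17 with HFCD and 1.18 with HFCSD, and at 27 weeks by 1.23 in control. No pathway gene was called in the change with diet at 27 minus 10 weeks, beside 0% of all probes for each diet.

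Marker genes of blood cells moved beside the cytokines between sample types. Of 6 T cell markers with a probe, 5 were called higher in white blood cells in control, 3 with HFCD and 5 with HFCSD, beside 45.3%, 47.5% and 58.9% of all probes called in either direction, CD3G by 1.58, 1.77 and 1.68 and CD2 by 1.58, 1.41 and 1.04. Of 3 natural killer cell markers 2 were called higher each time, KLRK1 by 1.38, 1.57 and 2.10, and PRF1. PRF1 was well above background on 3 of 4, 2 of 3 and 2 of 3 whole blood arrays. It met the filter through the white blood cell arrays alone, which favours a higher level there. Of 5 monocyte markers tested 2, 1 and 0 were higher, with FCN1 at 1.40 in control, and of 4 neutrophil markers none was higher and ARG1 was lower by 3.02, 3.72 and 3.42. Of 4 platelet markers and 1 liver gene tested none was called, and the erythroid genes HBA1 and EPOR were not tested between sample types. The part of these cell types in the higher CXCL8, IL10 and TGFB1 was not tested.

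In control whole blood 2 of 5 T cell markers tested were called, both lower, at 19 weeks (beside 12% of all probes) and at 27 weeks (beside 20.7%), while 2 of the 5 had a positive difference each time. CD2 fell by 1.41 at 19 weeks and 1.69 at 27 weeks, and CD3E by 1.44 and 2.12. The mean level of the T cell list, relative to each gene's own mean, was 0.10 at 10 weeks, −0.66 at 19 weeks and −0.65 at 27 weeks, and their part in the lower TGFB1 was not tested. No marker gene of these lists was called in a comparison of a diet with control. All probes were called at 10.6% with HFCSD in whole blood at 27 weeks and at 0.0123% to 0.0366% elsewhere. At such low shares the lack of a call says little about the cells. Platelet markers beside the IL18 result stood at 0.68 (SD 0.23) in control, −0.35 (0.28) with HFCD and −0.36 (1.47) with HFCSD at 27 weeks, uncalled. The HFCSD values were 0.80, 0.12 and −2.01, so replicate 3, also the lowest in IL18, carries that mean, and their part was not tested.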

How the data were processed

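Gene expression was measured on 45 one-colour arrays, grouped by the labels (sample type, diet, feeding period). The authors deposited spot intensity files written by Feature Extraction 10.5.1.1, already background-subtracted, and a series matrix of intensity on a linear scale, used only as an alternative. Control spots (1417 of 45220) and outlier spots (1 to 31 per array) were left out, the log2 processed signal was quantile normalized over all arrays and spots averaged per probe. Per array 15494 to 23344 spots (median 19242) were well above background. The number of arrays limits precision, and no spot was saturated. Arrays were tested as independent, though with 5 pigs per diet some must share a pig.

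Probes were named through RefSeq accessions (2032 probes), gene names (817) or descriptions (322), and accessions were looked up in RefSeq names of the pig genome. For several probes of a gene, the main one is well above background on most arrays. Tests used limma 3.58.1 (lmFit, eBayes, two-sided) with Benjamini-Hochberg adjustment over all probes tested, at least 2 usable arrays per group, in R 4.3.3 with the package data.table (version 1.17.8). There were 21 comparisons of groups and 4 of changes. Correlations used 100000 permutations. Figures were drawn with matplotlib 3.10.9, and summaries made with pandas 2.3.3, numpy 2.4.6 and scipy 1.17.1 under Python 3.11.15. The code was tested on simulated data.

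Alternatives were scaling to the 75th percentile, normexp (offset 50), the series matrix, a weaker presence mark, no filter or a stricter one, other sets of arrays in the fit, replicate number, slide or scan day as a block, each array's share of well-above-background spots as a covariate, the methods' t-test, and each array left out. The members, the pathway list, the marker lists (neutrophils, monocytes, T cells, natural killer cells, platelets, erythroid cells, liver) and the named genes were chosen with earlier results of these data known. Named pathway genes are called ones and, per diet comparison, those with the largest changes. Named like genes are among the 3 with the highest r. Some results are not reported here.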

Additional observations from a re-analysis of the deposited data

Results flagged for a closer look

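In 14 of 99 groups of 4 arrays, taken probe by probe, 1 array stood far from the other 3, and chance does so in about 1 in 20 groups. Only 4 of these arrays were well above background for the probe. For IL18 it was control whole blood at 10 weeks, replicate 1, at 9.07 above the others at 6.90 to 7.26. For TNF the main probe was low in control whole blood at 27 weeks, replicate 2, at 7.58 beside 7.87 to 7.91, and the overlapping probe was high in HFCSD whole blood at 10 weeks, replicate 2, at 8.05 beside 7.74 to 7.77. For IL6 the first probe was high in control whole blood at 19 weeks, replicate 3, at 3.98 beside 1.45 to 1.77.

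The other arrays far from their group were not well above background. The dim TNF probe was low in control whole blood at 10 weeks, replicate 3 (1.45), and HFCD at 10 weeks, replicate 2 (1.52), and high in HFCD at 19 weeks, replicate 2 (3.42). IL6 was high in HFCSD whole blood at 10 weeks, replicate 2 (1.76), and HFCD white blood cells, replicate 4 (2.39), by its first probe, and in control whole blood at 10 weeks, replicate 4 (2.74), by its second. CXCL8 was high in HFCSD whole blood at 10 weeks, replicate 3 (3.37), by its main probe, and by the other in HFCSD at 10 weeks, replicate 4 (2.34), and HFCD at 19 weeks, replicate 1 (3.23). The second IL18 probe was low in HFCD whole blood at 19 weeks, replicate 1 (1.60).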

How the results depend on the processing

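The TGFB1, IL10 and CXCL8 calls between sample types held in every limma alternative that tested the probe, the adjusted t-test kept 3 of the 4 with HFCD, and no called value changed sign. The calls within whole blood were less firm, and the cause was not tested where no construction shows it. The IL18 call with HFCSD at 27 weeks left 0 cytokine probes called with all 45 arrays in the fit, no filter, the methods' t-test after adjustment, the share of spots as a covariate or slide as a fixed block. With the replicate block (paired by number) it also left 0, with an IL18 change of −1.48. This block joins arrays of different diets, which are different pigs. Arrays of the same number in 2 diets had correlated deviations (r over 0.1) in 15 of 43 pairs, other numbers in 52 of 126. Arrays of the same diet and number in 2 feeding periods had correlated deviations (r over 0.1) in 20 of 31 pairs, other numbers in 32 of 90. Between the 2 sample types of a diet at 27 weeks it was 6 of 10 pairs, and 7 of 30 with other numbers. Between feeding periods of a diet the median r was 0.217 for the same number and −0.0885 for other numbers. Between sample types these were 0.14 and −0.0602, and between diets −0.0162 and 0.0149. The labels do not say whether the numbers follow a pig. No block of the numbers within a diet was run, so a pairing over periods or sample types was not taken into account.

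The HFCSD count for 27 against 10 weeks became 0 with percentile scaling, the weaker presence mark, no filter, the share of spots or the methods' t-test with its fold criterion. The control counts for 19 and 27 against 10 weeks became 0 with the adjusted t-test, and that for 19 weeks 1 with no filter or the fold criterion. All 45 arrays gave 1 for HFCD at 19 weeks. The fold criterion gave 1 for HFCD and for HFCSD at 19 weeks, HFCD at 27 weeks and HFCD at 27 against 10 weeks. With only probes well above background on every array of the fit, CXCL8 was not tested and the sample type counts were 1, 2 and 2. Leaving out each array gave 0 to 2 (HFCSD at 27 weeks), 3 to 5, 4 to 5 and 4 to 6 (sample types in control, HFCD and HFCSD), 0 to 2 and 1 to 3 (control, 19 and 27 against 10 weeks) and 0 to 1 (HFCSD, 27 against 10 weeks). The count over all probes for HFCSD at 27 weeks, 1824, ran from 0 with the share of spots to 2419 with slide as a fixed block, and from 95 to 2834 with 1 array left out. That block and the fit on the scan day with all 3 diets were chosen after seeing the data, and the share of spots was known from earlier results. Signal near background limits IL6, most CXCL8 values of whole blood and the dim TNF and IL18 probes, whose differences cannot be read with precision.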
